A study of Mus musculus with 8 samples.

Results

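Agrin (Agrn) and its receptor Lrp4 were followed at the level of single probe sets in mouse cortex with and without the RNA-binding protein Nova2. The members were all probe sets that named Agrn alone or Lrp4 alone in the platform annotation, 97 of the 391597 probe sets on the array, with 49 for Agrn and 48 for Lrp4. Agrn and Lrp4 were chosen with earlier results of these data known. Their probe sets were then taken by gene name alone, without regard to their values. The samples were cortex of Nova2 knockout (Nova2 KO) and wild type mice, 4 samples of each, all of the CD1 strain at postnatal day 10. Total RNA of each sample was put on 1 Affymetrix exon array. The labels do not give the knockout allele or the part of Nova2 that was removed. They also do not give the sex of the animals or whether littermates were used.

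Agrin is a large heparan sulfate proteoglycan of basement membranes. At the neuromuscular junction, agrin released by motor nerves binds Lrp4, a member of the low-density lipoprotein receptor family, and Lrp4 then activates the muscle kinase MuSK, which gathers acetylcholine receptors under the nerve ending. Only agrin forms that carry the small neuronal exons of the z site act strongly in this way, and earlier work in mice has shown that Nova proteins control the inclusion of these exons. In brain, agrin is found in the basement membrane of vessels and on neurons, and Lrp4 is known from astrocytes and neurons and also acts in Wnt signalling. The comparison asked whether either gene, or any single probe set within it, differed between Nova2 KO and wild type cortex. Which exon each probe set covers was not analysed here, so no probe set is assigned to the z site.

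All values are log2 signals made by the authors with PLIER, which combines the probes of a probe set. Array medians ran from 7.06 to 7.37 log2 in Nova2 KO and from 7.02 to 7.37 log2 in wild type, and in each group the array numbered 4 was the dimmest. As a check of the labels, the Nova2 probe set 5294108 gave 6.28, 7.17, 7.26 and 6.73 log2 on Nova2 KO arrays 1 to 4, against 8.87, 8.65, 8.53 and 8.66 log2 on wild type arrays 1 to 4. It was lower in every Nova2 KO array by a mean of -1.82 log2 (SE 0.22), although its limma adjusted p over all probe sets was 0.0786. It was the only 1 of 16 Nova2 probe sets with every Nova2 KO array below every wild type array. For 2 of the 16 every Nova2 KO array lay above, namely 4414499 (0.70 log2, SE 0.13, limma adjusted p = 0.321) and 4355944 (0.40 log2, SE 0.14, limma adjusted p = 0.700). The median signal of the 16 overlapped between the groups (-0.016 log2, SE 0.11, limma adjusted p = 0.975). A probe set outside the removed part checks nothing, and which probe sets lie in it is not known here. As for the tissue, 6 of 8 neuron markers were measured, with wild type gene values of 7.59 to 12.2 log2, among them Slc17a7, the vesicular glutamate transporter of cortical excitatory neurons. The 3 measured of 5 skeletal muscle markers (Acta1, Myh4 and Tnnt3) had wild type gene values of 6.83 to 8.18 log2.

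A gene value here is the median signal, on 1 array, of the kept probe sets of a gene. A probe set was kept when its mean signal exceeded 5.86 log2, the 25th percentile over the array. All 49 Agrn probe sets and 46 of 48 Lrp4 probe sets were kept. The gene value of Agrn was 10.19, 10.25, 10.01 and 9.50 log2 on Nova2 KO arrays 1 to 4, against 10.17, 10.24, 10.15 and 9.74 log2 on wild type arrays 1 to 4. The groups overlapped, and the array numbered 4 was the lowest in both. Agrn averaged 9.99 ± 0.34 log2 in Nova2 KO and 10.07 ± 0.23 log2 in wild type (SD, n = 4 each), a difference of -0.086 log2 (SE 0.17, limma adjusted p = 0.881). On the linear scale this put Nova2 KO at 94.2% of wild type, with an unadjusted 95% interval of 73.5% to 121%. The sign of this difference rested on Nova2 KO array 4, without which it was 0.076 log2 (limma adjusted p = 0.855; 0.605 to 0.973 over all 17 other settings).

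Lrp4 was lower on average in Nova2 KO, but the difference did not pass the test. Its gene value was 8.02, 7.97, 7.56 and 7.67 log2 on Nova2 KO arrays 1 to 4, against 7.99, 8.14, 8.24 and 7.96 log2 on wild type arrays 1 to 4. Nova2 KO arrays 3 and 4 lay below all wild type arrays, while arrays 1 and 2 lay within the wild type range. Lrp4 averaged 7.81 ± 0.23 log2 in Nova2 KO and 8.09 ± 0.13 log2 in wild type (SD, n = 4 each). The difference was -0.28 log2 (SE 0.12, limma adjusted p = 0.410, unadjusted 0.0425), which put Nova2 KO at 82.3% of wild type with an unadjusted 95% interval of 68.3% to 99.2%. Of all 11992 genes tested, 0.208% passed an adjusted p of 0.05 and 11.6% had an unadjusted p under 0.05, so an unadjusted p of this size was common. Fewer cells that express Lrp4 and less Lrp4 RNA per cell cannot be told apart in bulk cortex.

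**Figure D1:**
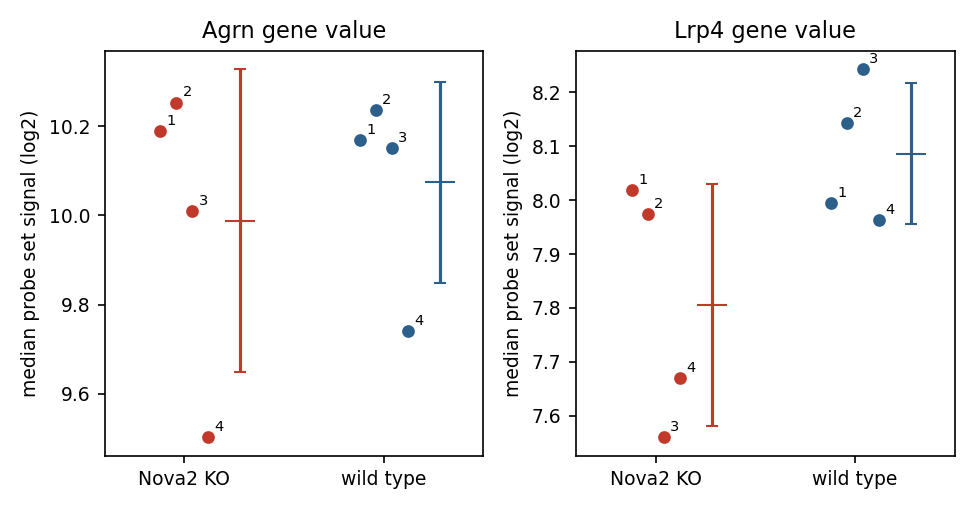
Gene values of Agrn and Lrp4 (log2, median over the kept probe sets) on each array, with the replicate number of the title beside each point, and the mean and SD of each group as bars. The groups overlap for both genes, Agrn is lowest on the array numbered 4 of each group, and Nova2 KO arrays 3 and 4 lie below all wild type arrays for Lrp4.

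The signal differences of single Agrn probe sets lay near that of the gene, with 1 exception. Signal was lower in Nova2 KO for 33 and higher for 16 of the 49 Agrn probe sets (67.3% lower, against 48.9% of all kept probe sets). Probe sets of 1 gene are read on the same arrays and are not replicates of each other. The median difference was -0.030 log2, against 0.0061 log2 over all 293697 kept probe sets. Apart from probe set 5443828, the differences of the other 48 ran from -0.32 to 0.19 log2. Nova2 KO array 4 was the lowest Nova2 KO array for 48 of 49 Agrn probe sets, and wild type array 4 the lowest wild type array for 46 of 49. Over all kept probe sets these shares were 45.9% and 50.6%, so low values on both arrays were common on the chip and still more frequent along Agrn. The size of the drop differed between Agrn probe sets. Probe set 4313819 had its highest wild type signal on array 4, at 10.30 log2 against 10.06 to 10.29 log2. Probe set 5443828 was at 7.56 log2 there, against 9.06 to 9.17 log2 on the other wild type arrays. The part of the low signal of these arrays in the Agrn values was not tested.

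Probe set 5443828 of Agrn had the largest difference of all members. Its signal was 7.88, 8.25, 7.85 and 7.05 log2 on Nova2 KO arrays 1 to 4, against 9.17, 9.17, 9.06 and 7.56 log2 on wild type arrays 1 to 4. Wild type arrays 1, 2 and 3 lay above every Nova2 KO array, while wild type array 4 lay within the Nova2 KO range, so the groups overlapped. The probe set averaged 7.76 ± 0.51 log2 in Nova2 KO and 8.74 ± 0.79 log2 in wild type (SD, n = 4 each). The difference was -0.98 log2 (SE 0.39), or a wild type mean 1.98-fold above Nova2 KO, with an unadjusted p of 0.0319 and an adjusted p of 0.725 (limma, adjusted over all kept probe sets). Without wild type array 4 it was -1.38 log2 (SE 0.26, limma adjusted p = 0.393).

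Among the Lrp4 probe sets, 39 of 46 were lower and 7 higher in Nova2 KO, with a median difference of -0.21 log2, whereas 48.9% of all kept probe sets were lower. These probe sets measure 1 transcript population on the same arrays and are not replicates of each other. The differences ran from -0.55 to 0.25 log2. For 5 Lrp4 probe sets every Nova2 KO array lay below every wild type array (10.9% of 46, against 2.04% of all kept probe sets), and for 0 did every Nova2 KO array lie above (3.05% of all kept probe sets). For Agrn no probe set had separate groups in signal.

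The clearest of these was 5435148, at 7.74, 8.004, 7.30 and 7.48 log2 on Nova2 KO arrays 1 to 4, against 8.17, 8.12, 8.25 and 8.09 log2 on wild type arrays 1 to 4. The wild type arrays lay close together and the Nova2 KO arrays spread below them, with a difference of -0.53 log2 (SE 0.16, limma adjusted p = 0.670). Probe set 5334727 gave 7.80, 7.89, 7.59 and 7.65 log2 on Nova2 KO arrays 1 to 4, against 8.19, 8.27, 8.22 and 7.95 log2 on wild type arrays 1 to 4, a difference of -0.42 log2 (SE 0.13, limma adjusted p = 0.670). The other 3 were 4810451 (-0.39 log2), 5222143 (-0.23 log2) and 5438514 (-0.21 log2). These 5, except 5435148, are named after their values were seen.

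No member passed in signal. With limma, 0 of the 95 kept probe sets of both genes had an adjusted p under 0.05, where 0.00681% of all kept probe sets did. At an unadjusted p under 0.05 there were 6, all lower in Nova2 KO, 1 of Agrn and 5 of Lrp4 (6.32% of 95, against 6.68% of all kept probe sets, or 2.78% counting only those lower in Nova2 KO). Counted in both directions, the members of both genes together thus held about the share found over the whole array. By gene the share was 2.04% for Agrn and 10.9% for Lrp4, and probe sets of a gene are not replicates of each other.

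**Figure D2:**
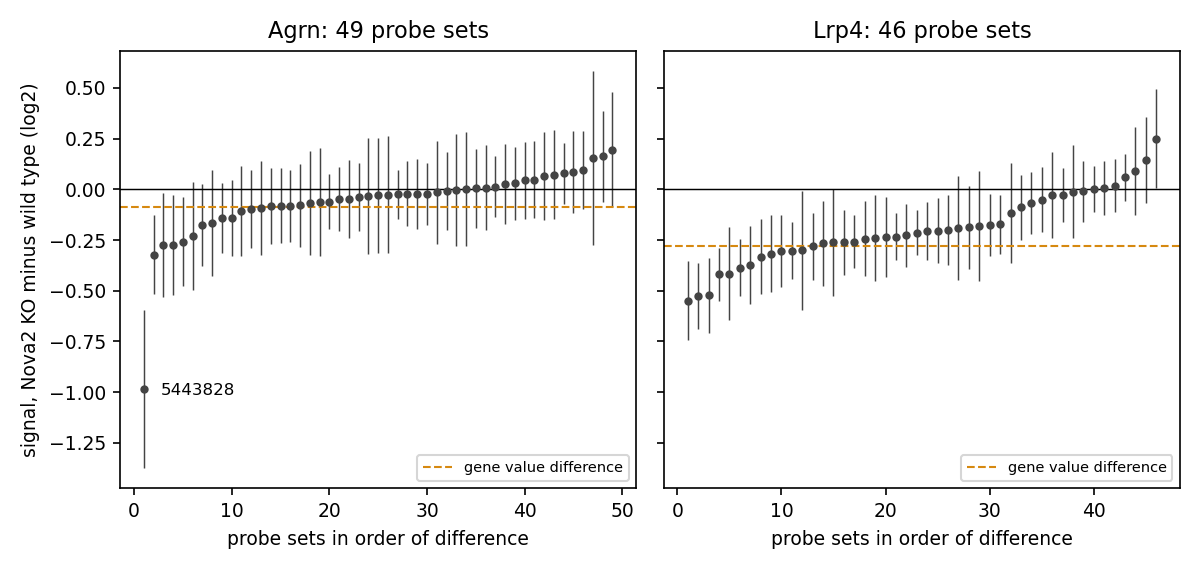
Difference in signal (log2, Nova2 KO minus wild type, with the limma SE as bars) of every kept probe set of Agrn (left) and Lrp4 (right), in order of size, with the difference of the gene value as a dashed line. Probe set 5443828 lies at -0.98 log2, apart from the other 48 of Agrn, and most Lrp4 probe sets lie below 0.

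The within-gene index asks whether a probe set changed relative to the rest of its gene. It subtracts the gene value from the signal on each array, so a shift shared by all probe sets of the gene drops out. A probe set that dims more or less than its gene on an array still shifts the index, and so does a difference in the gene value that the probe set does not share. The index of Agrn 5443828 was -2.31, -2.0, -2.15 and -2.46 log2 on Nova2 KO arrays 1 to 4, against -0.996, -1.07, -1.09 and -2.18 log2 on wild type arrays 1 to 4. Relative to the gene, 3 wild type arrays thus stood about level with each other and above all Nova2 KO arrays, and wild type array 4 stood among the Nova2 KO arrays. The index averaged -2.23 ± 0.20 log2 in Nova2 KO and -1.33 ± 0.57 log2 in wild type (SD, n = 4 each), a difference of -0.90 log2 (SE 0.26), with wild type 1.86-fold above Nova2 KO.

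This difference did not pass over the whole array (limma adjusted p = 0.631, unadjusted 0.00721). Without wild type array 4 it was -1.18 log2 (SE 0.12, limma adjusted p = 0.108), and without both arrays numbered 4 it was -1.10 log2 (SE 0.12, limma adjusted p = 0.280). With diffSplice, the exon test of limma that pools the spread over the probe sets of a gene, the adjusted p was 0.0693. This was the lowest of 18 other settings, which ran up to 0.872. The pooled spread is not that of 5443828 itself, whose wild type index SD was 0.57 log2, against a median of 0.14 log2 for Agrn. Probe set 5443828 was the only 1 of 95 kept members with an index difference of -0.5 log2 or lower. Of all probe sets with an index, 1.25% had a difference of that size.

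**Figure D3:**
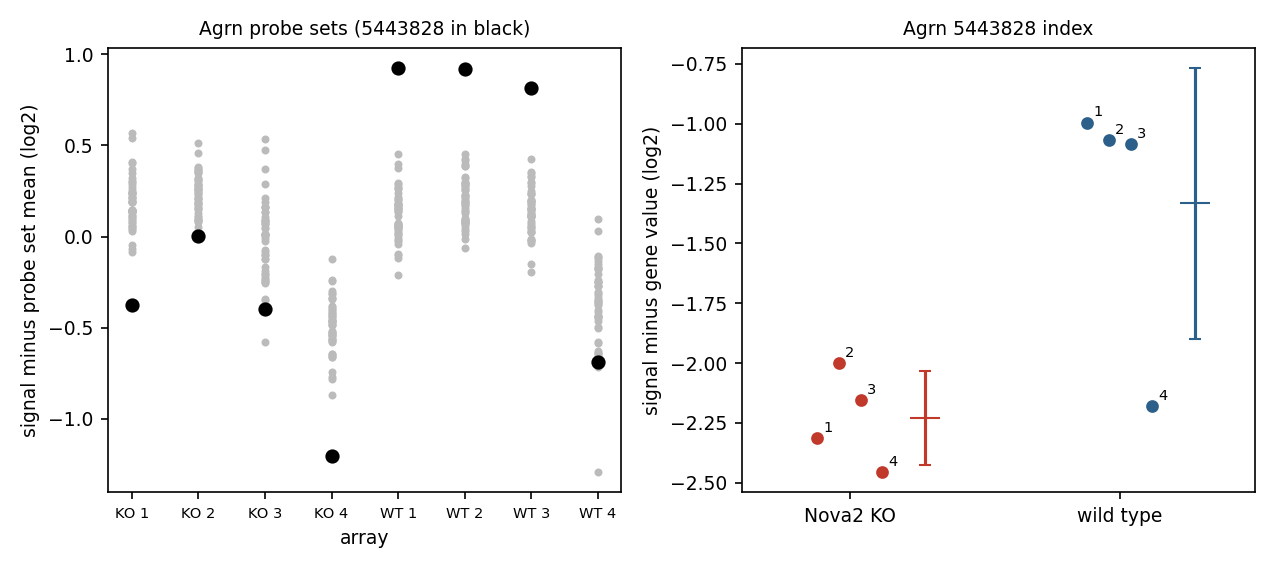
Left, signal of each of the 49 Agrn probe sets on each array, minus the mean of that probe set over the 8 arrays (log2), with 5443828 in black. Right, index of 5443828 (log2, signal minus gene value) with the mean and SD of each group, where wild type arrays 1, 2 and 3 lie between -1.09 and -0.996 and wild type array 4 at -2.18 lies among the Nova2 KO arrays.

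The other Agrn probe sets differed less between the groups relative to the gene. Among those with lower index, 5178893 differed by -0.24 log2 (SE 0.14) and 4882598 by -0.19 log2 (SE 0.11). Among those with higher index, 5169502 differed by 0.28 log2 (SE 0.14), 4769331 by 0.25 log2 (SE 0.11) and 5601266 by 0.24 log2 (SE 0.30). The groups overlapped for all of these and none passed, with limma adjusted p from 0.733 to 0.903. Apart from 5601266, which is taken up below, single arrays moved 2 of these differences by over 1.5 times. These were 5178893, at -0.37 log2 without wild type array 2, and 5169502, at 0.19 log2 without wild type array 4. The index of 4769331 was 0.90, 0.75, 0.92 and 0.68 log2 on Nova2 KO arrays 1 to 4, against 0.45, 0.50, 0.77 and 0.55 log2 on wild type arrays 1 to 4, with wild type array 3 within the Nova2 KO range.

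The sign for 5601266 rested on wild type array 4, where its signal was 5.70 log2, against 7.23 to 7.44 log2 on the other wild type arrays. Without that array its index difference was -0.053 log2 (limma adjusted p = 0.960). With all arrays, the index SD of 5601266 in wild type was 0.59 log2, the highest of the Agrn probe sets. The remaining 43 Agrn probe sets differed by -0.19 to 0.18 log2. In 1 of these 43, 5092072, every Nova2 KO array lay above every wild type array, by a mean of 0.18 log2 (SE 0.083, limma adjusted p = 0.748). It was the only such Agrn probe set, or 2.04% of 49, against 2.07% of all probe sets with an index.

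In Lrp4, the index moved most for 4776047. Its index was -1.32, -1.02, -1.46 and -1.42 log2 on Nova2 KO arrays 1 to 4, against -2.24, -1.65, -1.63 and -1.82 log2 on wild type arrays 1 to 4. The groups did not overlap, and the difference was 0.53 log2 (SE 0.16, limma adjusted p = 0.649, unadjusted 0.00950), or 1.44-fold. The probe set was dim, with a signal of 6.498 ± 0.39 log2 in Nova2 KO and 6.25 ± 0.39 log2 in wild type (SD, n = 4 each), and in signal alone the groups overlapped (0.25 log2, SE 0.24, limma adjusted p = 0.8995). The gene value of Lrp4, lower by -0.28 log2 in Nova2 KO, makes up the rest of the index difference. A difference of 0.5 log2 or more was found in 1 of 95 members and in 1.5% of all probe sets with an index.

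The same was seen for Lrp4 4431864, whose index differed by 0.28 log2 with separate groups (SE 0.10, limma adjusted p = 0.696). Its signal was 8.23, 8.12, 8.04 and 8.02 log2 on Nova2 KO arrays 1 to 4, against 8.12, 8.12, 8.16 and 8.001 log2 on wild type arrays 1 to 4, a difference of 0.0020 log2. Likewise 4828673 had separate groups in index (0.30 log2, SE 0.10, limma adjusted p = 0.688) and a signal difference of 0.018 log2. In both, nearly all of the index difference is the difference in the gene value. Both are named after their values were seen.

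Further probe sets chosen by the size of their Lrp4 index were 5195022 (0.42 log2, SE 0.20) and 4607121 (0.37 log2, SE 0.20) above, and 5426711 (-0.27 log2, SE 0.16), 5435148 (-0.25 log2, SE 0.10) and 4490707 (-0.24 log2, SE 0.11) below. Their groups overlapped in index, and limma adjusted p ran from 0.728 to 0.791. The difference of 5426711 was -0.13 log2 without wild type array 4, that of 4607121 was 0.23 log2 without Nova2 KO array 3, and that of 5195022 was 0.20 log2 without both arrays numbered 4. The remaining 40 kept Lrp4 probe sets differed by -0.14 to 0.34 log2.

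The probe sets of Lrp4 scattered more around their gene than those of Agrn. The median SD of the index within a group was 0.23 log2 in Nova2 KO and 0.20 log2 in wild type for Lrp4, and 0.13 log2 in Nova2 KO and 0.14 log2 in wild type for Agrn. This difference between the genes was not tested, and the Lrp4 signals were lower, with wild type means of 6.25 to 10.7 log2 for Lrp4 and 6.91 to 11.9 log2 for Agrn.

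Across both genes, 0 of 95 probe sets passed in index with limma, and diffSplice also gave 0, where 0.0133% of all 195014 probe sets with an index passed in limma. At an unadjusted p under 0.05 there were 7 (7.37% of 95, against 6.76% of all), of which 2 were of Agrn and 5 of Lrp4. The index was higher in Nova2 KO for 69 of the 95, with a median difference of 0.060 log2, against -0.00033 log2 over all. In both genes the gene value was lower in Nova2 KO by more than the median probe set. For Lrp4 this was -0.28 against -0.21 log2, and for Agrn -0.086 against -0.030 log2. This gap adds to the index difference of every probe set of the gene. Groups did not overlap for 4 members, all higher in Nova2 KO (4.21% of 95, against 2.07% of all). These were 1 of Agrn (2.04% of 49) and 3 of Lrp4 (6.52% of 46). None of the 95 had all Nova2 KO arrays below (2.05% of all). Neither gene passed in exon usage by the Simes p over its probe sets, with an adjusted p of 0.811 for Agrn and 0.811 for Lrp4, where 0.161% of 11187 genes did.

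**Figure D4:**
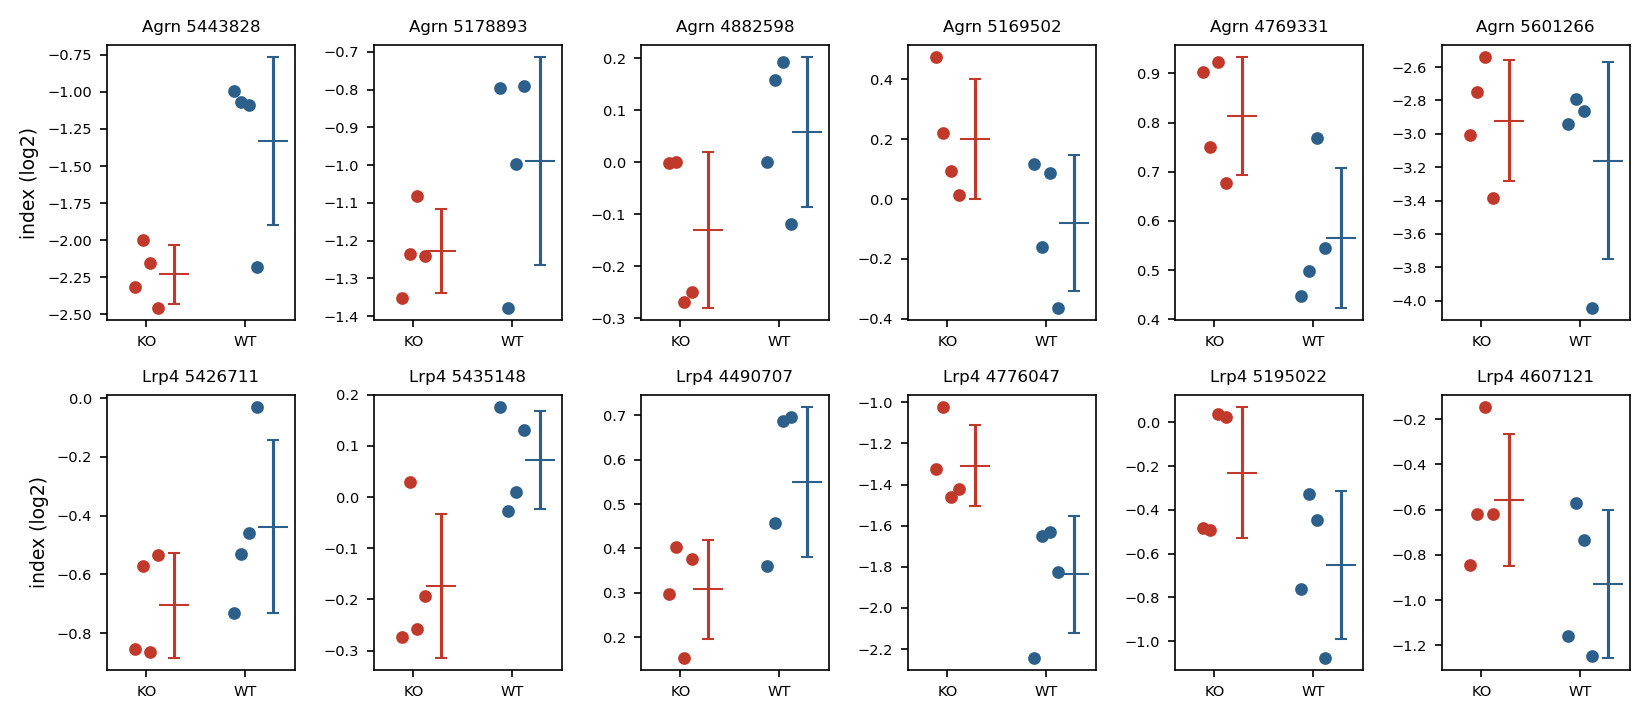
Index (log2, signal minus gene value) on each array for the 6 Agrn (top) and 6 Lrp4 (bottom) probe sets with the largest differences in either direction, Nova2 KO in red and wild type in blue, with the mean and SD as bars. Of these 12, only Lrp4 4776047 has groups that do not overlap, and each panel has its own axis.

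The 2 Lrp4 probe sets under the filter lay near the floor of the array, which was at 4.00 log2. The signal of 5184385 was 4.57 to 5.34 log2 in Nova2 KO and 4.84 to 5.45 log2 in wild type, and that of 5556650 was 4.81 to 5.68 log2 in Nova2 KO and 4.89 to 5.42 log2 in wild type. When all probe sets were tested without a filter, neither passed in index (limma adjusted p = 0.970 and 0.777).

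Genes around agrin were described by lists of known partners. Of 6 agrin proteases and cell-surface partners, 3 were named on probe sets and 0 passed, with a median of -0.051 log2, against 0.022 log2 over all genes. Dag1, which encodes dystroglycan, a receptor for agrin and laminin, was at 9.91 to 10.19 log2 in Nova2 KO and 9.78 to 10.03 log2 in wild type (0.18 log2, SE 0.10, limma adjusted p = 0.526). App, the amyloid precursor protein, differed by -0.076 log2 (SE 0.10), and Prss12, which encodes neurotrypsin, a protease that cleaves agrin, by -0.051 log2 (SE 0.087). Musk was not analysed here.

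Downstream of Lrp4, 8 of 13 genes of the MuSK cascade and the acetylcholine receptor cluster were measured and 0 passed, with 4 higher and 4 lower and a median of 0.031 log2. Ache, the enzyme that breaks down acetylcholine, was at 8.19 to 8.66 log2 in Nova2 KO and 7.96 to 8.31 log2 in wild type (0.28 log2, SE 0.13, limma adjusted p = 0.415). Chrnd, the delta subunit of the muscle acetylcholine receptor, was dim and differed by -0.34 log2 (SE 0.14, limma adjusted p = 0.398). These 2 had the lowest p of the list, and both pairs of groups overlapped.

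Lrp4 also binds the Wnt inhibitor sclerostin, and 9 of 10 listed genes for Lrp4 ligands and Wnt co-receptors were measured. None passed in limma, where 1 had an unadjusted p under 0.05, and the median was 0.0081 log2. That 1 was Lrp5, a Wnt co-receptor of the same family, which was at 7.20 to 7.37 log2 in Nova2 KO and 7.47 to 7.59 log2 in wild type, with separate groups (-0.21 log2, SE 0.090, limma adjusted p = 0.389). Apoe, a lipid carrier and ligand of this family, differed by -0.14 log2 (SE 0.093), and Sost, which encodes sclerostin, by 0.022 log2 (SE 0.12).

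In the wider receptor family, 12 of 13 genes were measured, 6 higher and 6 lower, with a median of -0.0079 log2 and 0 past the threshold (3 at an unadjusted p under 0.05, limma). The lowest p was that of Lrp1, the large endocytic receptor, which was at 9.41 to 9.92 log2 in Nova2 KO and 10.19 to 10.47 log2 in wild type. Its groups were separate and the difference was -0.67 log2 (SE 0.13, limma adjusted p = 0.0715). Sorl1, a sorting receptor for the amyloid precursor protein, differed by -0.38 log2 (SE 0.14, limma adjusted p = 0.320). Separate gene value groups with Nova2 KO below were found in 2.5% of all genes, and with Nova2 KO above in 5.06%.

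Agrin shares its sugar chains with other heparan sulfate proteoglycans and its location with basement membrane proteins. Of 11 measured proteoglycan core protein genes, 0 passed and 0 had an unadjusted p under 0.05 (limma), with values from -0.18 log2 for Gpc6, a glypican, to 0.13 log2 and a median of 0.0021 log2. Col18a1, which encodes a collagen with heparan sulfate chains, differed by -0.13 log2 (SE 0.093). All 10 measured basement membrane genes were lower on average in Nova2 KO, by -0.16 to -0.041 log2 with a median of -0.11 log2. None of the 10 passed and none had an unadjusted p under 0.05 in limma. The lowest p were those of the collagen IV genes Col4a2 (-0.16 log2, SE 0.10) and Col4a1 (-0.14 log2, SE 0.097).

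**Figure D5:**
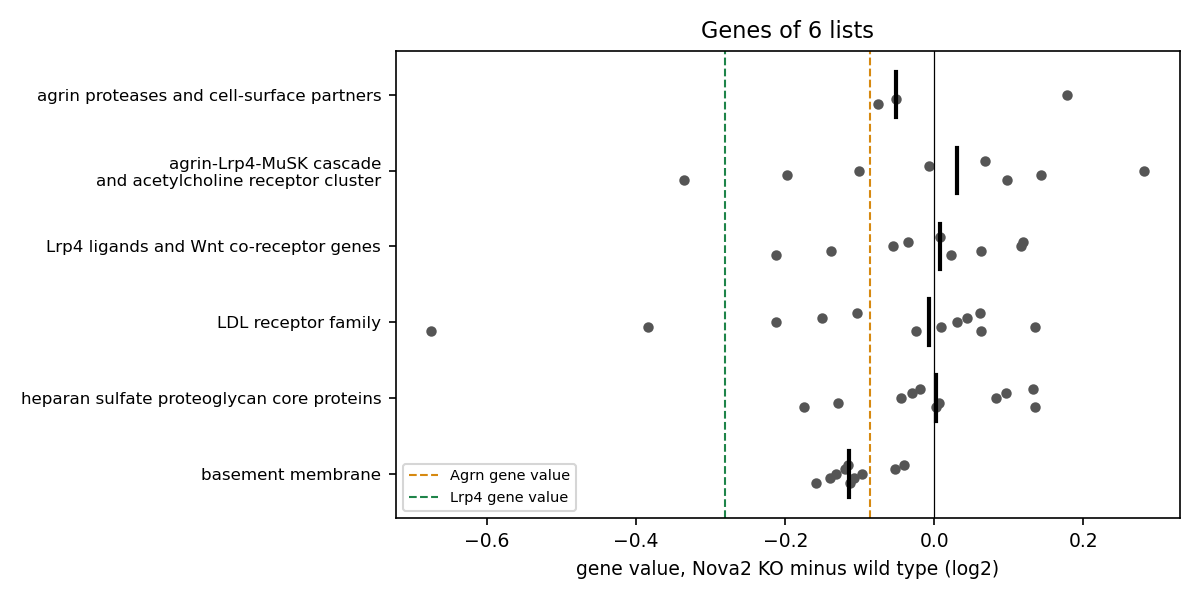
Difference in gene value (log2, Nova2 KO minus wild type) of each measured gene of 6 lists around agrin and Lrp4, 1 point per gene, with the median of each list as a black bar and the differences of Agrn and Lrp4 as dashed lines. The 10 basement membrane genes lie between -0.16 and -0.041, and the lowest point of the receptor family is Lrp1.

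Markers of 9 cell types or tissues were set beside these values. Which of them make agrin or Lrp4 in this cortex was not measured. Of 6 measured endothelial markers, 6 were lower on average and 0 passed, with summed levels of 11.08 to 11.26 log2 in Nova2 KO and 11.17 to 11.36 log2 in wild type. Of 6 measured astrocyte markers, 5 were lower and 0 passed, with summed levels of 13.24 to 13.56 log2 in Nova2 KO and 13.43 to 13.52 log2 in wild type. The pericyte list had 3 of 4 lower and 0 passed, at 10.41 to 10.54 log2 in Nova2 KO and 10.34 to 10.63 log2 in wild type. Meningeal markers were lower for 4 of 5 and 0 passed, at 11.08 to 11.38 log2 in Nova2 KO and 11.20 to 11.45 log2 in wild type. Of 6 measured oligodendrocyte markers, 5 were lower, 3 had an unadjusted p under 0.05 and 1 passed (limma). Their summed levels were 11.42 to 11.63 log2 in Nova2 KO and 11.77 to 11.89 log2 in wild type and did not overlap. The marker that passed was the myelin gene Mog (-0.77 log2, SE 0.13, limma adjusted p = 0.0301). The myelin genes Mag (-0.64 log2) and Mbp (-0.34 log2) did not pass, nor did Olig1 (-0.11 log2), Olig2 (-0.0075 log2) and Sox10 (0.046 log2), transcription factors of the oligodendrocyte lineage. In the 4 other marker lists (neuron, choroid plexus, skeletal muscle and microglia) 0 genes passed. Neuron markers were higher in Nova2 KO for 4 of 6 (median 0.091 log2), and skeletal muscle markers for 3 of 3 (median 0.19 log2). Microglial markers were lower for 4 of 5, and the choroid plexus list had 1 higher and 1 lower. The part of these cell types in the values of Lrp4, Agrn and the basement membrane genes was not tested.

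Over the 8 arrays, the genes whose gene value was most like that of Agrn were Ddx11, Trim11, Efr3b, Naa40 and Dmpk, with Pearson r from 0.985 to 0.993. None of these 5 passed between the groups, with differences of -0.13 to -0.027 log2. An r over 0.9 with Agrn was found for 319 of 11991 genes (2.66%). For Lrp4 the nearest were Zer1, Klhl11, Slc39a10, Cables1 and Rabggta, with r from 0.964 to 0.980 and differences of -0.29 to -0.17 log2, and 85 genes (0.709%) had an r over 0.9. All points of these correlations share the arrays and their overall brightness, so they are given as a description only.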

How the data were processed

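The authors deposited 1 log2 value per probe set and array, made with PLIER per the submitters' processing notes. Background correction, normalization between arrays and genome build are not given in the sources used here. Array values were used as deposited. Genes were named through the platform annotation and the RefSeq gene table of GRCm38.p6, whose coordinates were not used. Arrays carry no read depth. Precision is limited by how many there are.

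Probe sets above the 25th percentile of mean signal were kept (293697). Gene values needed 3 kept probe sets and the index 5. Each measure was fitted on the whole table with lmFit and eBayes of limma 3.58.1 (R 4.3.3), with differences taken as Nova2 KO over wild type and two-sided p-values. Benjamini-Hochberg adjustment covered all features, with a threshold of 0.05. The scripts were tested on simulated data. Figures used matplotlib 3.10.9.

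The text names, per gene, the 3 probe sets with the largest index difference in each direction, up to 2 genes per list with the lowest p, and the 5 genes with the highest correlation over the arrays. Prss12, Sost, the Agrn probe sets 4313819 and 5092072, and the marker genes are named outside this rule, after their values were seen. Agrn, Lrp4 and the lists were chosen with earlier results of these data known, and the probe sets of Agrn and Lrp4 were then taken by name alone. Other settings were the filter, the normalization, the offset, the gene summary, the array median as a covariate, the replicate number as a block, diffSplice and leaving out arrays. The 4 samples of a group carry separate numbers in their titles and were treated as separate mice.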

Additional observations from a re-analysis of the deposited data

Results flagged for a closer look

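For Agrn 5443828, wild type array 4 was far from the other 3 of its group, with a signal of 7.56 log2 against 9.06 to 9.17 log2, and an index of -2.18 log2 against -1.09 to -0.996 log2. The same array was far from its group for Agrn 5601266, with a signal of 5.70 log2 against 7.23 to 7.44 log2, and an index of -4.04 log2 against -2.94 to -2.79 log2. These were 4 of 52 groups of 4 values looked at. Chance marks about 1 in 20 independent groups, but these 4 are signal and index of 2 probe sets on the same array. The probe sets were also chosen by their index difference, so the 2 shares cannot be compared. Wild type array 4 was also the dimmest array and had the highest share of values at the floor (3.34%). The part of this in the 2 probe sets was not tested.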

How the results depend on the processing

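No Agrn or Lrp4 result passed the threshold under any setting tried, so no call was gained or lost. The Agrn gene value changed sign in 1 of 17 settings, at 0.076 log2 without Nova2 KO 4, and ran from -0.20 to 0.076 log2 when single arrays were left out. The index of Agrn 5601266 changed sign without wild type 4, at -0.053 log2, and ran up to 0.39 log2 without Nova2 KO 4. The cause of either was not tested. Lrp4 stayed negative in all 17, from -0.35 log2 without Nova2 KO 1 to -0.19 log2 with the mean over probe sets, with adjusted p from 0.211 to 0.641. The index of Agrn 5443828 stayed negative in all 18, from -1.18 to -0.79 log2. Same-numbered arrays deviated together in part, with correlations of 0.14, 0.33, 0.024 and 0.57 across genes. For arrays of unlike number the correlations ran from -0.46 to 0.28. With 1 of 4 under 0.1, and not every array closest to its own number, the numbers were not taken as pairs. With the replicate block the Agrn gene value was at -0.086 log2 (adjusted p = 0.634), Lrp4 at -0.28 log2 (adjusted p = 0.227), the 5443828 index at -0.90 log2 (adjusted p = 0.536) and its signal at -0.98 log2 (SE 0.16, adjusted p = 0.264). Over all features, the number past the threshold ran from 6 to 80 genes (25 as reported, 80 with the replicate block). It ran from 2 to 43 probe sets in index (26) and from 0 to 184 in signal (20).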
